A study of Drosophila melanogaster with 3 samples.

Results

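The salivary gland and tracheal regulators fkh, CrebA, sage, eyg, toe, sens, trh, vvl, btl and bnl are 10 of the 13945 protein-coding genes annotated on the 6 chromosome arms of Drosophila melanogaster. A peak was given to a gene when its summit lay inside the gene body or when one of the gene's start sites was the nearest start site of any protein-coding gene. By that rule the 10 genes held 7 of the 2740 thresholded peaks of the protein pb. Of the 30000 regions in each longer list they held 125 in the combined list and 115, 111 and 116 in replicates 1, 2 and 3. The combined list was deposited as peaks and background together, and the replicate lists are as long. A region in a longer list is therefore not by itself a site of pb. The peaks come from chromatin immunoprecipitation followed by sequencing (ChIP-seq) of whole embryos aged 0 to 24 h, in 3 biological replicates that form 1 group. The transgenic line stably expressed pb, a Hox transcription factor of the Antennapedia complex, with GFP fused at its C terminus, and both sexes were pooled. The chromatin was sonicated to 200 to 800 bp and recovered with an antibody against GFP. No library without the tagged protein was analysed here, so recovery that depends on pb and recovery that does not cannot be told apart. Whole embryos also do not resolve cells, so a peak at a salivary or tracheal gene is not assigned to the gland or the trachea.

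The embryonic salivary gland forms from a placode on the ventral surface of the head that is specified by the Hox gene Scr, which like pb belongs to the Antennapedia complex. fkh encodes a forkhead factor that maintains gland fate and drives cell invagination, CrebA encodes a bZIP factor that raises the secretory machinery, and sage encodes a bHLH factor that acts with Fkh on gland products. sens encodes a zinc finger factor that keeps gland cells alive, and eyg with its neighbour toe encodes a pair of related Pax factors, of which eyg acts in the salivary primordium. The trachea forms from segmental placodes selected by the bHLH-PAS factor trh, which works as a dimer with tgo, and by the POU homeodomain factor vvl. Tracheal branches then migrate by signals of the FGF ligand bnl, made outside the trachea, to its receptor btl, made in tracheal cells.

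The reference sequence around the 7 thresholded summits is printed first, because the peaks differed widely in base composition, from 29.4% to 63.7% G and C, and in the short motifs they held. Each run covers 100 bases to either side of the summit in dm6, read 5′ to 3′, and capitals mark matches to any of 10 motifs searched on both strands. The bnl promoter run is shorter because 65 annotated untranslated bases were left out.
fkh promoter, chr3R:28585368-28585568, plus strand: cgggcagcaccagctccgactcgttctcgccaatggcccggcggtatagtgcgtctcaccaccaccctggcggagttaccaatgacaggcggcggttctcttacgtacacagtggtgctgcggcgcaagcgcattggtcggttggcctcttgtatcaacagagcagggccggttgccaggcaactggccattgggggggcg
eyg promoter, chr3L:12468073-12468273, plus strand: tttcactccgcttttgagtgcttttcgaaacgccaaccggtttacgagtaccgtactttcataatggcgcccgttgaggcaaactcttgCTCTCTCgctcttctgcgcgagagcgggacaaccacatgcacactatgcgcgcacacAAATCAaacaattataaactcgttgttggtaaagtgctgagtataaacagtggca
CrebA upstream, chr3L:15533461-15533661, plus strand: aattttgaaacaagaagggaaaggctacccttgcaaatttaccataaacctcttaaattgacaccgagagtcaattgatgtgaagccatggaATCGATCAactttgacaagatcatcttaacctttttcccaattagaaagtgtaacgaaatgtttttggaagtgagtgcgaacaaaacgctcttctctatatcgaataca
bnl promoter, chr3R:19836818-19836953, plus strand: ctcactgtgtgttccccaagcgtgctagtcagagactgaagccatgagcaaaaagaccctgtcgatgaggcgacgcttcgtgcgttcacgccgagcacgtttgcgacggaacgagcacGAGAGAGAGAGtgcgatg
trh internal start, chr3L:378118-378318, plus strand: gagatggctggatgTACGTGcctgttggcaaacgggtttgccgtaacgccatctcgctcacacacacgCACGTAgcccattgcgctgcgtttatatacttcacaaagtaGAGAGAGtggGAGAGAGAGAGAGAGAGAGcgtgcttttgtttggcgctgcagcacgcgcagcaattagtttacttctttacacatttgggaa
vvl downstream, chr3L:6807604-6807804, plus strand: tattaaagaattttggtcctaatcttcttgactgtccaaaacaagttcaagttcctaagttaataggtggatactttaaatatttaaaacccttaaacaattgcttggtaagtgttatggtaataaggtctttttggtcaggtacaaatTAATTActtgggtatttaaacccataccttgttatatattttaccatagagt
bnl intron, chr3R:19831119-19831319, plus strand: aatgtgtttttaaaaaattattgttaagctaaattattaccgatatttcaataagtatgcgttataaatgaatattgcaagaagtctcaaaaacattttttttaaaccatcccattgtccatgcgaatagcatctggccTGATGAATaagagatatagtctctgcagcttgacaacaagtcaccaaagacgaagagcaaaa

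In these runs CTCTCTC and GAGAGAG mark the site of GAGA factor, a protein found at many promoters, at eyg, bnl and trh. TACGTG, or CACGTA on the other strand, marks the known binding sequence of trh with tgo, at trh. TGATNNAT marks the joint site of a Hox protein and its cofactor Exd, at CrebA (as ATCGATCA) and in the bnl intron. TAATTA marks the core bound by homeodomains of the Antp class, at vvl, and AAATCA the core of the sens site, at eyg. The matches to GAGAGAG at bnl overlap each other within a longer repeat, as do those at trh other than the first, and the N positions of TGATNNAT stand for any base.

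Of the 10 regulators, 6 were nearest to at least 1 thresholded peak, against 15.0% of all protein-coding genes. These were the gland regulators fkh, eyg and CrebA, the tracheal selectors trh and vvl, and the ligand gene bnl, which had 2 peaks. The gland regulators sage, toe and sens and the receptor gene btl had none. A gene with much sequence around it offers more room for a summit by this rule, and the 10 regulators had a median of 21.9 kb of nearest sequence against 4.33 kb over all genes. Among genes with at least 10 kb of nearest sequence, a comparison chosen after the data were seen, 26.3% had a thresholded peak, and 6 of the 8 regulators of that size did. Counting a summit inside the gene body, 2 of the 10 regulators (trh and bnl) had a thresholded peak, against 9.02% of all genes. The 10 genes were chosen with earlier results of these data known, so none of these shares is an independent comparison.

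The median rank of the 7 peaks, with rank 1 for the largest of the authors' signal values, was 774 in the thresholded list, against 1370.5 over all 2740 peaks. Signal values were used as ranks within a list, since their statistic is not given in the sources used here. A summit of every replicate lay within 100 bp of the summit of each of the 7 peaks, which held for 88.4% of all thresholded peaks. A match could be a region of any rank, and those of trh in replicate 2 and the bnl intron in replicate 1 ranked 10170 and 16100. Such a match is not a strong peak in that library. The 4 peaks at fkh, eyg, CrebA and the bnl promoter ranked among the strongest 2740 regions of all 3 libraries, as did 46.7% of all thresholded peaks. The other 3 peaks, at trh, vvl and the bnl intron, each fell outside that range in 1 library. The thresholded list was made by the authors from the same 3 libraries, so this recovery is not independent of the choice of peaks.

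**Figure D1:**
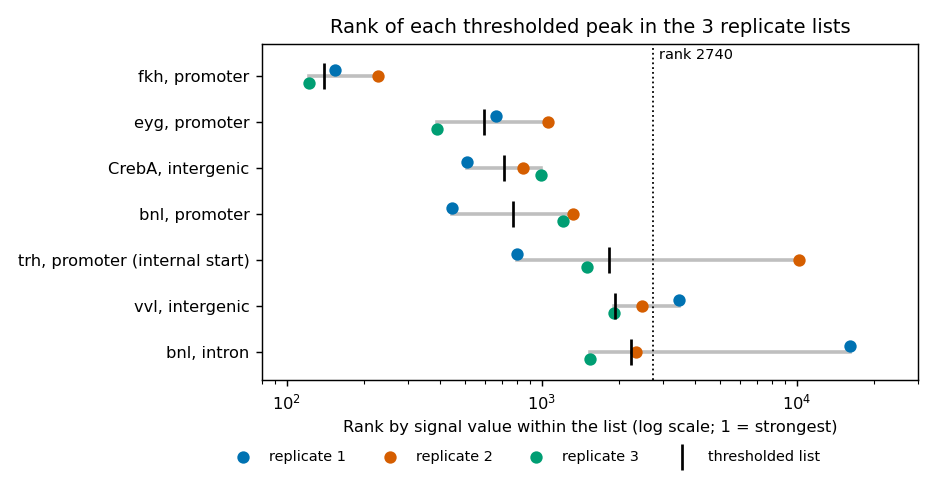
Rank of each of the 7 thresholded peaks in the 3 replicate lists (coloured points; logarithmic axis, 1 is the strongest), with grey bars from the lowest to the highest rank, the rank in the thresholded list as a black tick and rank 2740 as a dotted line. The peaks at fkh, eyg, CrebA and the bnl promoter lie left of the dotted line in all 3 replicates, while trh crosses it in replicate 2, vvl in replicate 1 and the bnl intron in replicate 1.

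Among the salivary gland genes, fkh (FBgn0000659, chr3R:28580976-28585264, minus strand) had the strongest peak of the set, 204 bp upstream of its start site (chr3R:28585369-28585608, rank 140). Its rank was 155, 228 and 122 in replicates 1, 2 and 3, with a mean of 168.3 ± 54.2 (SD, n = 3). Replicate 3 was the strongest and replicate 2 the weakest, and all 3 summits lay within 28 bp of the combined summit. The peak was 240 bp wide, while the other 6 peaks had the list's usual width of 410 bp, and 13.6% of thresholded peaks were as narrow or narrower. The run of 201 bases had 63.7% G and C, against a median of 39.3% and a 95th percentile of 54.3% over all thresholded peaks. It was the single run of the 7 with no match to any motif searched, while 1527 of all 2740 thresholded peaks held at least 1. TGTTTAC, the forkhead motif, was in none of the 7 runs and in 6.82% of all thresholded peaks.

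eyg (FBgn0000625, chr3L:12462537-12468021, minus strand) had a promoter peak 152 bp upstream of its start site (chr3L:12467968-12468377, rank 594). Its ranks were 664, 1060 and 387 (703.7 ± 338, SD, n = 3), and the summits lay within 8 bp of the combined one, the tightest position of the 7. The next region at eyg lay just below the threshold, at rank 2985 of the combined list and 10580 bp downstream of the start site. It ranked 1750 and 3558 in replicates 2 and 3 and had no counterpart in replicate 1. The neighbouring Pax gene toe (FBgn0036285, chr3L:12422510-12432668, minus strand) had no thresholded peak, and its strongest combined region, 1246 bp upstream, ranked 4905. The best rank of any region nearest to toe was 4715, 5253 and 5104 in the 3 replicates, at a different place in each.

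CrebA (FBgn0004396, chr3L:15535395-15553214, plus strand) had an intergenic peak 1834 bp upstream of its start site (chr3L:15533356-15533765, rank 709). The next gene, CG43248, began 2088 bp from the summit, so the peak lay at a similar distance from both genes. The ranks were 507, 842 and 991 (780.0 ± 248, SD, n = 3), which made it the single distal peak of the set inside the strongest 2740 of all 3 libraries. The match to the Hox and Exd motif began at -8 bp from the summit on the plus strand. A second region, in an intron 2864 bp downstream of the start site, ranked 2966 in the combined list. Replicates 2 and 3 placed it at 2641 and 2221, and no summit of replicate 1 lay within 100 bp of it.

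sens (FBgn0002573, chr3L:13396228-13401125, minus strand) and sage (FBgn0037672, chr3R:9262654-9264142, minus strand) lay far below the threshold. The strongest combined region of sens was in a coding exon at rank 11602, and its best rank was 6403, 7305 and 16459 in the 3 replicates, at different places. sage had no region in the combined list, and its best rank was 26822, 12383 and 20838. fkh, eyg and CrebA thus had a peak at rank 1060 or stronger in each library, while the strongest region nearest to sage, toe or sens in any library was that of toe at rank 4715. sage also has little nearest sequence, 3.29 kb, below the median of all genes, which leaves less room for a summit. Its absence from the combined list says that no region passed the depth of 30000 regions, not that pb is absent there.

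Among the tracheal genes, the ligand gene bnl (FBgn0014135, chr3R:19794073-19836817, minus strand) had the strongest peak, 36 bp upstream of its start site (chr3R:19836648-19837057, rank 774). It ranked 444, 1323 and 1208 (991.7 ± 478, SD, n = 3), strongest in replicate 1. A second peak lay in a bnl intron, 5598 bp downstream of the start site (chr3R:19831014-19831423, rank 2236), and ranked 16100, 2342 and 1542. Replicate 1 stood far from the others there, so the mean of 6661.3 ± 8184 (SD, n = 3) became 1942 without it. The 201 bases around the promoter summit, including the untranslated bases that the printed run leaves out, had 57.7% G and C, and those around the intron summit 31.3%. Another region of bnl, also intronic and 10144 bp downstream, ranked 4054 in the combined list.

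The selector gene trh (FBgn0262139, chr3L:366524-392633, minus strand) had a peak inside the gene body, 902 bp upstream of an internal start site at position 377316 and 14415 bp from the outermost one (chr3L:378013-378422, rank 1833). It counts as a promoter peak through that internal start. Its ranks were 802, 10170 and 1506 (4159.3 ± 5217, SD, n = 3), with a mean of 1154 without replicate 2. The highest rank number was 12.7 times the lowest, a wider spread than at 96.2% of the 2421 thresholded peaks found in all libraries. The summits were also less aligned than at the gland genes. Counted along the plus strand from the combined summit, replicate 1 had summits at -94 bp (rank 802) and 113 bp (rank 5256). Replicate 2 had them at -190 bp (rank 6277) and 32 bp (rank 10170), and replicate 3 had 1 at 52 bp. No summit of replicate 2 within 300 bp ranked above 6277.

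The matches to TACGTG began at -86 and -32 bp from the trh summit on the same scale, and 5.18% of all thresholded peaks held that motif. The first GAGAGAG match there began at 9 bp and the repeat ran on from 19 bp.

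vvl (FBgn0086680, chr3L:6790158-6794941, plus strand) had a distal peak 17546 bp downstream of its start site (chr3L:6807499-6807908, rank 1940), where the next protein-coding gene, Rsph3, began 44458 bp away. The ranks were 3463, 2474 and 1923 (2620.0 ± 780, SD, n = 3), the narrowest relative spread of the 7, with the highest rank number 1.80 times the lowest. The vvl promoter, 124 bp upstream of the start site, lay just outside the threshold at rank 2866 of the combined list. Its replicate ranks were 11910, 3923 and 1377, a wider spread than at the distal peak. In replicate 1 the strongest vvl region was neither of these but a coding exon, 2677 bp downstream, at rank 2730.

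The receptor gene btl (FBgn0285896, chr3L:14075772-14083229, plus strand) had few and weak regions. In the combined list 1 region was nearest to it, in an intron at rank 22621, and another inside its body, at rank 16313, lay nearer to the start of CG8100. Replicate 1 had 4 regions nearest to btl, the best at rank 18910, and replicates 2 and 3 had none. The ligand gene bnl of the branching pathway thus had 2 thresholded peaks, and its receptor gene had no region above rank 10362 in any list. The 2 genes are not matched in size, since btl had 6.51 kb of nearest sequence and bnl 28.7 kb. Less nearest sequence leaves btl less room for a summit, and the effect of this on the contrast was not tested.

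Read from the full libraries, without the authors' threshold, the strongest 2740 regions were nearest to 6 of the 10 regulators in replicate 1, 5 in replicate 2 and 6 in replicate 3 (5.67 ± 0.577, SD, n = 3). The share of all protein-coding genes was 15.1%, 14.8% and 14.8% in the same lists. The regulators were those with thresholded peaks, except that trh was missing from replicate 2. In replicate 1 vvl entered only through its coding exon region at rank 2730, close to the cut, while its thresholded peak ranked 3463 there. At the depth of the whole combined list, 9 of the 10 regulators were nearest to a summit, against 68.4% of all genes. Neither this count nor those of the replicates was adjusted for nearest sequence, a median of 21.9 kb for the regulators against 4.33 kb over all genes. The number of strong regions nearest to the regulators varied more than the number of genes, with 6, 8 and 10 in replicates 1, 2 and 3 (8.0 ± 2.0, SD, n = 3).

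**Figure D2:**
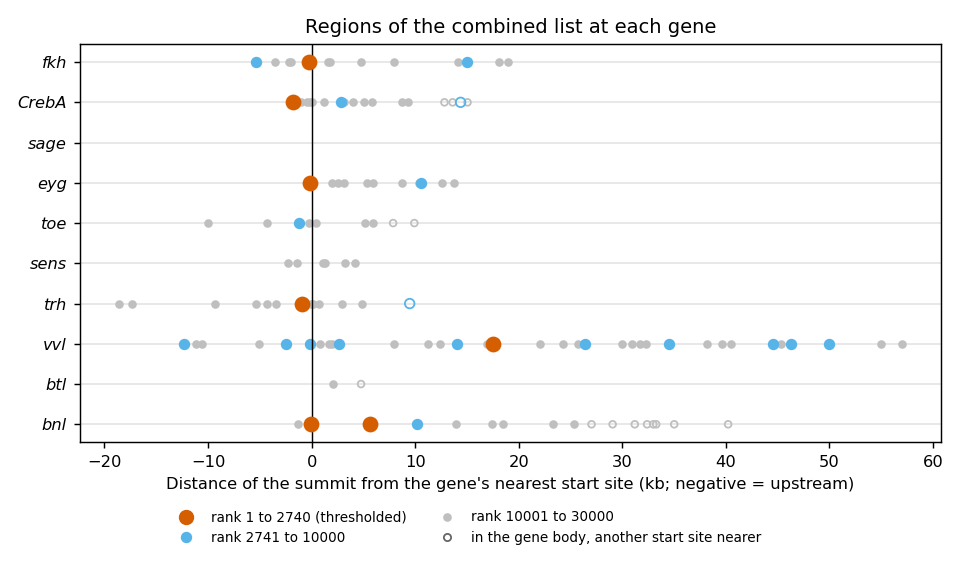
Position of every combined-list region of the 10 genes, as the distance of its summit from the gene's nearest start site in kb (negative is upstream), with point size and colour for rank class and open circles for regions in the gene body that lie nearer to another gene. The orange points within about 2 kb of the start line belong to fkh, CrebA, eyg, trh and bnl, the regions of vvl spread from 12329 bp upstream to 56999 bp downstream, and sage has none.

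Most regions of these genes in the full lists were distal. In the combined list 59 of the 125 regions were intergenic, 34 intronic, 17 in coding exons, 14 at promoters and 1 in a 3′ UTR. vvl alone held 35 of the 109 regions with a regulator as nearest gene, and 37, 38 and 40 regions in replicates 1, 2 and 3 (38.3 ± 1.53, SD, n = 3). That number varied little between libraries, and 30 of the 35 combined regions of vvl were intergenic.

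Per 10 kb of nearest sequence, the 10 genes together had 3.94, 3.98 and 4.26 regions in the 3 replicates, against 2.24 over the 6 arms. Regions of every rank were counted, so these are not densities of pb sites. CrebA was the densest gene with 9.13 ± 2.84 regions per 10 kb (SD, n = 3), followed by vvl with 5.09 ± 0.203 and fkh with 4.64 ± 0.846. vvl and fkh did not differ beyond the spread between replicates. sage (4.05 ± 1.75), eyg (3.77 ± 0.934), bnl (3.26 ± 0.878), toe (3.04 ± 1.27) and sens (2.97 ± 1.85) overlapped each other over the replicates. trh, with 2.33 ± 0.558 regions per 10 kb, lay around the value over the arms, and btl, with 2.05 ± 3.55, was the nearest gene to regions of replicate 1 and to none of the other replicates. The order of densities was not that of the strongest peaks. sage, with 1 or 2 weak regions in 3.29 kb, had a higher density than trh in every replicate.

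**Figure D3:**
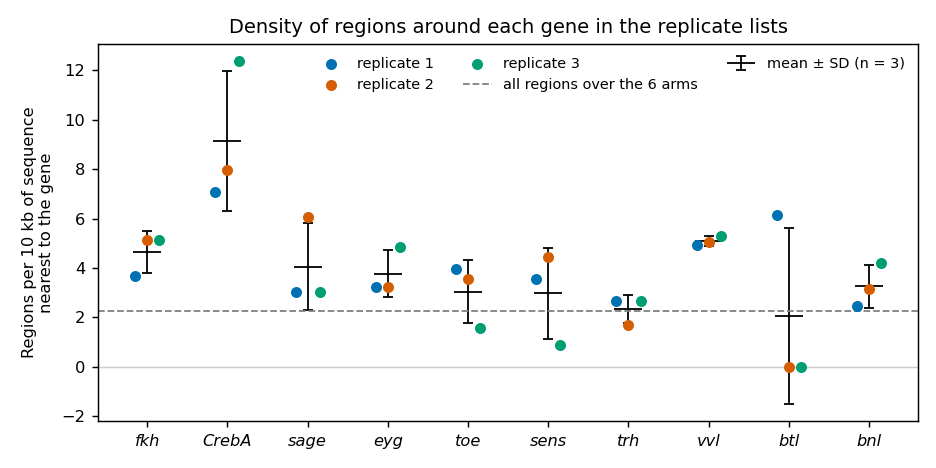
Regions per 10 kb of nearest sequence for each gene in the 3 replicate lists (points), with the mean and SD over 3 (black) and the value over all 6 arms (dashed line at 2.24). CrebA lies highest at 9.13, vvl has the smallest SD at 0.203, and the bar of btl, nearest to regions of replicate 1 alone, runs below 0 because its SD exceeds its mean.

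Promoter peaks, within 1000 bp of a start site, made up 4 of the 7 thresholded peaks (57.1%), against 63.2% of all thresholded peaks. The exact Clopper-Pearson 95% interval of 18.4% to 90.1% treats the 7 peaks as independent draws. Peaks of chosen genes are not such draws, so the interval serves only as a wide limit and is no error between libraries. The median rank of the 4 promoter peaks was 684, while that of the 3 distal peaks was 1940. Over all thresholded peaks the medians were 1369 and 1374. In the replicates the distal median of these peaks was weaker than the promoter median by 2909, 1150.5 and 744.5 rank places (1601.3 ± 1150.5, SD, n = 3). Over all matched thresholded peaks the same differences were 230.5, -76 and 168.5. The difference of 1256 places in the thresholded list rests on few peaks. It was 25 without replicate 2 and 115 without replicate 3, since fewer peaks then ranked in both remaining top lists. It was also 25 with peaks limited to 5000 bp from a start site, which left CrebA as the distal peak.

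In the full replicate lists the promoter regions of the 10 genes were 14, 12 and 13 in number, a share of 12.9% ± 1.21 (SD, n = 3) against 38.7% ± 3.25 over all regions. The 10 genes had a median of 21.9 kb of nearest sequence against 4.33 kb over all genes, and vvl alone held 37, 38 and 40 regions. The shares were not adjusted for either. The promoter regions of the 10 genes had median ranks of 11240, 6663 and 4780, with a mean of 7561 ± 3322 (SD, n = 3). The distal regions had medians of 16352, 18153 and 16348 (16951 ± 1041). The promoter regions ranked above the distal ones in all 3 libraries, as they did over all regions, where the medians were 11672 ± 303 and 16833 ± 230 (SD, n = 3). The gap was 9390 ± 3705 places for the regulators and 5161 ± 386 for all regions, and in replicate 1 the 2 gaps were close, at 5112 and 4894. In the combined list the promoter regions of the 10 genes had a median of 14248.5, weaker than the 11378 of all promoter regions, so the replicates and the combined list differed in this order.

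Of the promoter regions of the 10 genes, 28.6%, 25.0% and 38.5% were among the strongest 2740 of their library (30.7% ± 6.97, SD, n = 3), against 14.7% ± 1.04 of all promoter regions. Of their distal regions 4.50% ± 1.85 were, against 5.66% ± 0.219 of all distal regions. The promoter share lay above that of all regions in each replicate, while the distal share lay below that of all distal regions in each, nearest in replicate 2 at 5.75% against 5.79%. These shares count 4, 3 and 5 promoter regions and 2, 5 and 5 distal ones.

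**Figure D4:**
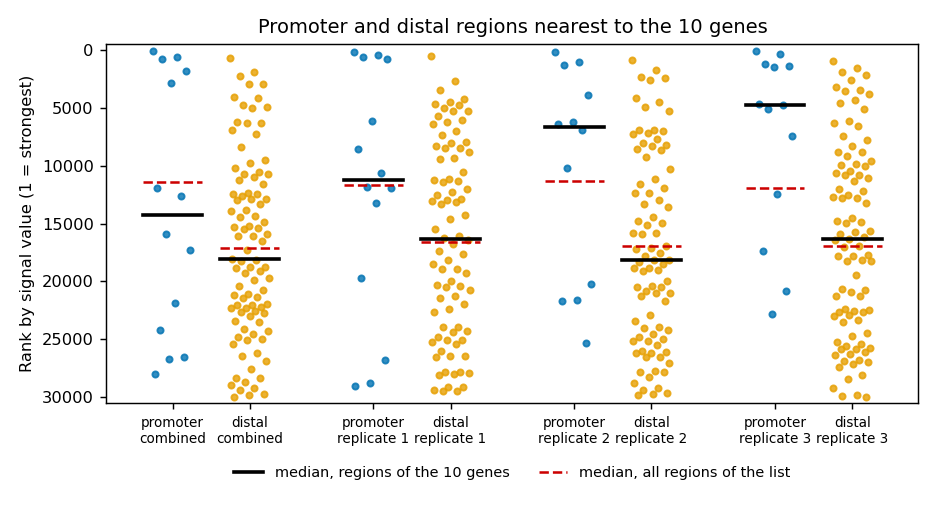
Rank (linear axis, strongest at the top) of each region nearest to 1 of the 10 genes, split into promoter (blue) and distal (orange) for the combined list and each replicate, with the median of these regions as a black bar and the median of all regions of the list as a red dashed line. In replicates 2 and 3 the promoter median of the 10 genes, 6663 and 4780, lies well above the list's own promoter median, whereas in replicate 1 they are close at 11240 and 11674, and in the combined list the order is turned at 14248.5 and 11378.

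The deposited −log10 q was 3.76 for all 2740 peaks of the thresholded list, the 7 included, and so it did not rank them. In the replicate lists, fkh, eyg, CrebA and the bnl promoter were at the largest value of the list in all 3 (3.38, 3.50 and 3.70), which 1199, 1587 and 2523 of the 30000 regions of replicates 1, 2 and 3 reached. trh was there in replicates 1 and 3, and vvl and the bnl intron in replicate 3. Their lowest values were 0.731 for trh in replicate 2, and 1.28 for vvl and 0.356 for the bnl intron in replicate 1. The 4 peaks at the ceiling in all libraries were thus the same 4 that ranked among the strongest 2740 in all of them, and both values come from the same calls.

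Of the motifs searched within 100 bp of the summits, GAGAGAG was in 3 of the 7 peaks and in 7.15% of all thresholded peaks (7.96% of promoter and 5.76% of distal ones). TGATNNAT was in 2 of the 7 and in 10.9% of all, TAATTA in 1 and 12.3%, and AAATCA in 1 and 22.2%. The motifs ATGCAAAT for POU factors such as vvl, TGACGT for bZIP factors such as CrebA, TATCGATA for DREF and CAGGTAG for Zelda were in none of the 7. In all thresholded peaks they were in 2.66%, 4.23%, 4.42% and 0.985%. A match describes the letters and is not a site of binding, and with 7 peaks each count moves by a large step. Over all thresholded peaks, TAATTA was in 12.2% of promoter and 12.6% of distal ones, and TGATNNAT in 11.0% and 10.7%.

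A wider list of 16 genes of salivary gland invagination and secretion had 9 genes nearest to a thresholded peak (56.2%), with 17 peaks, 12 of them at promoters, and a median rank of 1119. The strongest was Btk, listed by its older symbol Btk29A, a tyrosine kinase gene, at rank 496 and 4546 bp from its start site, with replicate ranks of 416, 518 and 738. SrpRbeta, a subunit of the signal recognition particle receptor in the secretory pathway, was nearest to a peak at rank 524, but 19364 bp away. rib, a BTB factor needed in both organs, had a distal peak at rank 626 with ranks of 1130, 377 and 1055 (854.0 ± 415, SD, n = 3).

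Of the 24 annotated genes of a tracheal list, 9 had a peak (37.5%), with 14 peaks, 4 of them at promoters, and a median rank of 1198.5. sima, the hypoxia-inducible bHLH-PAS factor, had a distal peak at rank 398, and pnt, the ETS factor downstream of FGF signals, one at rank 405, 12163 bp from its start site. dpp, the BMP ligand that guides dorsal and ventral branches, had one at rank 411, with replicate ranks of 332, 449 and 618 (466.3 ± 144, SD, n = 3). The other FGF ligand genes, ths and pyr, had peaks at ranks 851 and 1191, and the pyr peak ranked 866, 1206 and 4145 in the replicates. htl, their receptor gene, and stumps, the adaptor gene shared by both FGF receptors, had none. tgo, the partner of trh, and kni and knrl, zinc finger factors of branch identity, also had none. These 2 ligand genes and the genes without a peak were picked for naming after their values were seen. Over both lists 17 of 39 genes (43.6%) had a thresholded peak. Genes in these lists were chosen for their roles, but with earlier results of these data known. Their amounts of nearest sequence were also not matched to the background of 15.0%, so the shares are no independent comparison.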

How the data were processed

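ChIP-seq of pb-GFP was measured in 3 biological replicates of whole embryos, and the deposited narrowPeak lists on dm6 were used. Per the deposited notes, the authors called each replicate list on that replicate and 1 control, called the combined list on all 3 together, and made the thresholded list from it on the irreproducible discovery rate. The combined list was deposited as peaks and background, the input to that last step. The thresholded list was checked to be the strongest 2740 regions of the combined list. The authors' signal values, of unstated normalization, were used as ranks within a list. The authors' deposited −log10 q values were used as they stand. The sources used here name no aligner or peak caller, and the read depth is unknown, so counting errors of reads are not given. The dm3 lists, the signal tracks and the control were not used here.

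Summits were joined to the Ensembl release 115 annotation and the Release 6 genome with Python 3.11.15, pandas 2.3.3, numpy 2.4.6 and SciPy 1.17.1. A summit within 1000 bp of a protein-coding start site was called promoter and any other distal. Distal summits were then called exonic or untranslated before intronic, and intergenic last. Nearest sequence is the stretch of an arm whose closest protein-coding start site belongs to the gene. Peaks of different lists matched when summits lay within 100 bp. Assignment, matching and motif search were tested on simulated data.

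With 1 group there is no contrast, and no test was made. SDs over the 3 libraries are the error, and nothing beyond the labels says how separately the embryos were collected. The 10 genes, the wider lists and the motifs were chosen with earlier results of these data known. All 10 genes are named, with the gene next to a peak and up to 4 genes of each wider list with the strongest peaks, of which 1 is not reported here. The genes without peaks and the FGF ligands named in the wider tracheal list were chosen after their values were seen. The symbol dys matched no single gene, and fga was read as Hph. Alternatives were a stricter threshold, other rules of assignment, other windows, matching distances and list depths, and leaving out each replicate.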

Additional observations from a re-analysis of the deposited data

How the results depend on the processing

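Counts were held to 1.5 times their main value and the promoter share to its exact interval of 18.4% to 90.1%, a wide limit. Ranks were held to 1 SD between replicates, which was also wide for trh, the bnl intron and the distal minus promoter difference. The main results were each recomputed under several alternatives, and every recomputed value was counted. On these limits 92 recomputed values stayed inside, 13 moved and 0 changed direction, and of the counts of single motifs 24 stayed and 6 moved. A change of direction was looked for in the distal minus promoter difference alone, so the 0 says nothing about the other results. Some of the 92 could not move. A mean rank over 2 of the 3 libraries always lies within 1 SD of the mean over 3, and ranks in the thresholded and combined lists are the same. Such values say nothing about stability. Counting gene bodies in place of nearest start sites left 2 genes with a thresholded peak, 2 peaks, a median rank of 2034.5, 2 peaks matched in all replicates, 0 among the strongest of all 3, and 2.33 genes at strong regions per library. The stronger 1370 peaks left 4 peaks, 0 in gene bodies, 4 matched and 3 with any motif, by construction of a smaller list. Matching within 50 bp left 4 of the 7 peaks in all replicates. The distal minus promoter difference was 25 with start sites within 5000 bp.

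Leaving out each replicate in turn gave 4 to 5 genes with a peak and a median rank of 651.5 to 741.5. The distal minus promoter difference was then 25 to 1346, with 5.5 to 6 genes at strong regions. There were 7 matched peaks each time, and 4 to 6 peaks among the strongest of both other libraries. Every replicate matched all 7 peaks, so the 7 could not change. The 4 peaks strong in every library, at fkh, eyg, CrebA and bnl, kept the counts of strong peaks and of genes from falling below 4. The unchanged 7 and the lower limit of 4 thus say nothing about stability. Mean ranks ran from 138.5 to 191.5 for fkh, 525.5 to 862 for eyg, 674.5 to 916.5 for CrebA, 826 to 1265.5 for the bnl promoter, 1154 to 5838 for trh, 2198.5 to 2968.5 for vvl and 1942 to 9221 for the bnl intron. The counts of genes and the difference use the peaks strong in both other libraries, and causes were not tested. No paired analysis was possible because there is a single group. With 7 peaks and no read depth, the shares are coarse.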
